A study of Mus musculus with 10 samples.

Results

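*Tinag*, *Vmn2r3*, *Pcdh20* and *Tcf24* are 4 of the 24052 genes listed for a comparison of 5 wild-type (WT) and 5 Ndrg3 LKO mouse livers. They were selected on their counts in these 10 livers, near 0 in WT and clear in Ndrg3 LKO. Their difference between the groups is therefore given as a description, with no test and no p-value. The Ndrg3 LKO mice carried homozygous floxed *Ndrg3* alleles and Cre recombinase under the albumin promoter (Alb-Cre), which removes exon 4 of *Ndrg3* in hepatocytes, and the controls were WT littermates. All 10 mice were males on a C57BL/6 background, fed ad libitum, and aged 8 to 10 weeks by the methods, although an older range stands elsewhere in the study. Each library came from the liver of 1 mouse and was made from whole tissue, so it holds RNA of every liver cell type. In such bulk samples a change in the number of cells of a type and a change in RNA per cell cannot be told apart.

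None of the 4 genes belongs to the usual program of the liver. *Tinag* encodes tubulointerstitial nephritis antigen, a secreted glycoprotein of the basement membrane around kidney tubules that resembles cathepsin B without its protease activity. *Vmn2r3* encodes a type 2 vomeronasal receptor, one of a large family of G protein-coupled receptors by which sensory neurons of the vomeronasal organ detect pheromones. *Pcdh20* encodes a non-clustered protocadherin, a transmembrane protein of the cadherin superfamily that takes part in cell adhesion and is best known from the nervous system. *Tcf24* encodes a basic helix-loop-helix (bHLH) transcription factor, of the class of tissue-restricted factors that pair with E proteins on CANNTG motifs, the E-boxes.

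Between 20872262 and 24747870 reads were counted on genes in the WT livers and between 23474693 and 30450057 in the Ndrg3 LKO livers. At these depths 3 counts, taken as the smallest signal a library can show, correspond to between 0.0985 and 0.144 CPM, the counts scaled to a common library size. Per-liver levels below are CPM after TMM scaling, a correction for differences in library composition. The range given for 3 counts is before that scaling. *Ndrg3* itself was at 15.9 to 21.9 CPM in WT and 7.07 to 9.15 CPM in Ndrg3 LKO livers, with no overlap. The study's own RNA sequencing figure covers 5 WT and 4 Ndrg3 LKO livers and does not say which liver was left out. Here Ndrg3 LKO replicate 5 stood apart from the other 4 Ndrg3 LKO livers. Its score on the leading principal component, which held 68.7% of the variance, was 14.1, against 51.1 to 56.6 in the other 4 and -49.9 to -43.1 in WT. Albumin (*Alb*) was at 107851 CPM in that liver, within the WT range of 80539 to 115834, and at 20907 to 26317 in the other 4. Its *Ndrg3* level of 8.25 CPM lay among those of the other Ndrg3 LKO livers. For some results, values without this liver are therefore also given.

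The 4 genes lie on 4 chromosomes, all on the minus strand, and the GENCODE annotation of NCBIM37 (mm9) has no gene overlapping any of them. *Tinag* (ENSMUSG00000032357.5) spans chr9:76799505-76893588 with 11 exons, and *Pcdh20* (ENSMUSG00000050505.6) spans chr14:88864554-88871203 with 3 exons. *Vmn2r3* (ENSMUSG00000091572.1) spans chr3:64062883-64091339 with 6 exons. *Tcf24*, which this annotation lists as Gm10567 (ENSMUSG00000073738.2), spans chr1:9950252-9952890 with 1 exon. The counts cover whole genes, so no exon, intron or UTR could be told apart.

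The 250 bases upstream of the annotated start are shown for the 3 genes with an entry in the RefSeq promoter table (GRCm38.p6), so that their letters can be compared. Of the motifs searched on both strands, capitals mark the matches to CCAAT and TTGCNNAA. In GRCm38.p6 these windows are, on the minus strand, chr9:77045782-77046031, chr3:64287418-64287667 and chr14:88471397-88471646. Each matched NCBIM37 exactly at 1 place, ending at the annotated start.
Tinag: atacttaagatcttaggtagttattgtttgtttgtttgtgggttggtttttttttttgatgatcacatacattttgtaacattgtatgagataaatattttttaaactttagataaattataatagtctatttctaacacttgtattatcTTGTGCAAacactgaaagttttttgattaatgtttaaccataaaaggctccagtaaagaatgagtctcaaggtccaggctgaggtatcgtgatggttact
Vmn2r3: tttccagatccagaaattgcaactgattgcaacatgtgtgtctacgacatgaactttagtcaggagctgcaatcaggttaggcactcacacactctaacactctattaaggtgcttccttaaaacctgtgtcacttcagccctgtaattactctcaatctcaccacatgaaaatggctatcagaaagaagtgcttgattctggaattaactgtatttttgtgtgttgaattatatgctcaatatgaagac
Pcdh20: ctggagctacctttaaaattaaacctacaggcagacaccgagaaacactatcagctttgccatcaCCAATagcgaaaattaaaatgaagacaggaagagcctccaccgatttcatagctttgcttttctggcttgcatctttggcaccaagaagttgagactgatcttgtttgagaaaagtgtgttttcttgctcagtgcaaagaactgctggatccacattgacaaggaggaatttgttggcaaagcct

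All 3 windows upstream of the annotated starts were poor in G and C. The annotated length of *Vmn2r3* is probably a coding length. Its annotated start may then not be a transcription start, and its window may not be a promoter. The GC content was 28.8% for *Tinag*, 38.8% for *Vmn2r3* and 42.4% for *Pcdh20*, against a median of 52.4% over all 32851 promoters of the table. Only 1.04% of these promoters had a lower GC content than *Tinag*, 9.7% a lower one than *Vmn2r3* and 16.9% a lower one than *Pcdh20*. The CpG dinucleotide, the main target of DNA methylation in mammals, occurred 1 time in the *Tinag* window, 1 time in the *Vmn2r3* window and 3 times in the *Pcdh20* window, against a median of 6. None of the 8 motifs searched occurred in all 3 windows. TTGCNNAA, letters bound by C/EBP factors, matched 1 time in *Tinag* and is held by 9.56% of all promoters. CCAAT matched 1 time in *Pcdh20* and is held by 33.8%. The E-box CANNTG, which overlaps no capitalized match here, matched 1 time in *Tinag* and 3 times in *Vmn2r3* and is held by 66.2%. TATAAA (12.4% of all promoters), GGGCGG (32.7%), TGANTCA (6.75%), GGAATG (12.6%) and CAAAGTCCA (0.384%) matched in none of the 3 windows. These are matches of letters and not sites of binding.

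*Tinag*, like *Vmn2r3*, had at most 1 count in any WT liver. Its counts in WT replicates 1 to 5 were 0, 0, 1, 1 and 0, and those in Ndrg3 LKO replicates 1 to 5 were 759, 857, 794, 193 and 63. Its levels in the Ndrg3 LKO livers were 21.8, 20.8, 20.4, 5.498 and 2.97 CPM, so that replicates 1 to 3 were nearly level and replicates 4 and 5 were several-fold lower. The mean was 14.3 ± 9.24 CPM (SD, n = 5) in Ndrg3 LKO livers and 0.0203 ± 0.0281 CPM (n = 5) in WT, the latter below the 3-count floor.

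*Vmn2r3* had counts of 0, 1, 0, 1 and 1 in the WT livers and of 399, 1418, 1467, 368 and 70 in the Ndrg3 LKO livers. Its levels in the Ndrg3 LKO livers were 11.5, 34.4, 37.7, 10.5 and 3.30 CPM. Replicates 2 and 3 were thus about as high as each other, replicates 1 and 4 lower, and replicate 5 lowest. The mean was 19.5 ± 15.5 CPM (SD, n = 5) against 0.0309 ± 0.0286 CPM (n = 5) in WT.

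*Pcdh20* had the highest counts of the 4 genes in Ndrg3 LKO livers. Its counts were 5, 6, 5, 8 and 13 in WT, against 5202, 9935, 10314, 3055 and 755 in Ndrg3 LKO replicates 1 to 5. The levels in WT were 0.281, 0.293, 0.279, 0.368 and 0.774 CPM, each from more than 3 counts. Those in Ndrg3 LKO livers were 149, 241, 265, 87.0 and 35.6 CPM, with replicates 2 and 3 highest and replicate 5 lowest. The mean was 156 ± 98.0 CPM (SD, n = 5) against 0.399 ± 0.213 CPM (n = 5) in WT.

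*Tcf24* had the smallest difference between the groups and the most even level within Ndrg3 LKO. Its counts were 10, 2, 14, 16 and 7 in WT, against 271, 561, 447, 336 and 245 in Ndrg3 LKO replicates 1 to 5. The levels in WT were 0.562, 0.0977, 0.780, 0.735 and 0.417 CPM. Those in Ndrg3 LKO livers were 7.78, 13.6, 11.5, 9.57 and 11.6 CPM, and replicate 5 was not low. The mean was 10.8 ± 2.204 CPM (SD, n = 5) against 0.518 ± 0.276 CPM (n = 5) in WT.

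**Figure D1:**
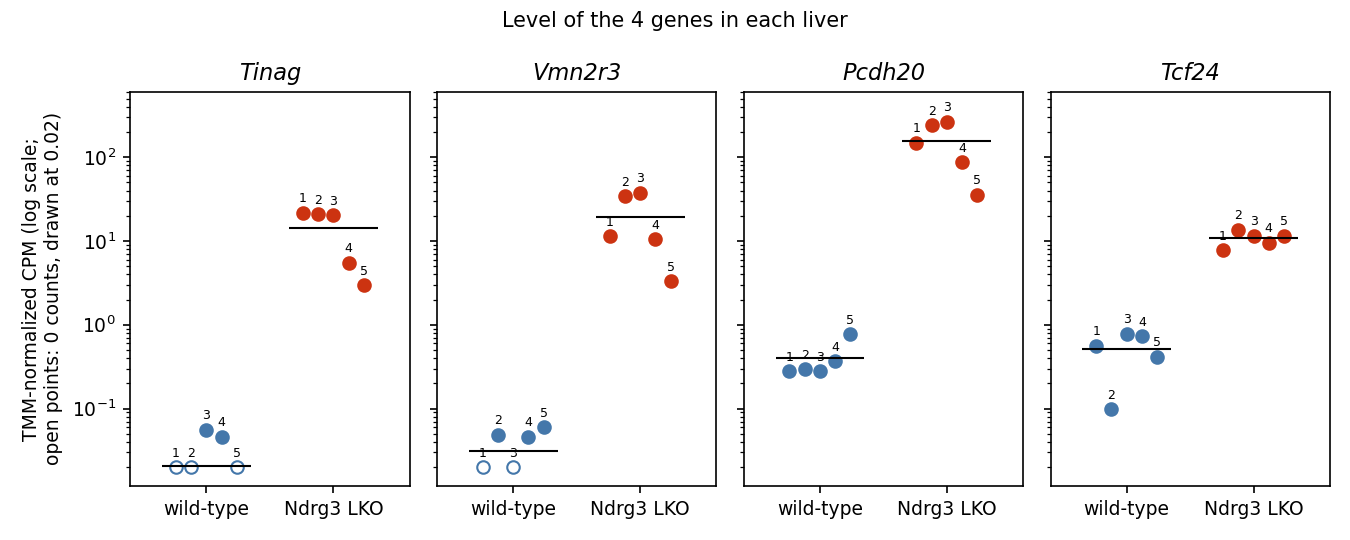
TMM-normalized CPM, on a log axis, of *Tinag*, *Vmn2r3*, *Pcdh20* and *Tcf24* in 5 WT (blue) and 5 Ndrg3 LKO (red) livers. Numbers are replicate numbers, lines are group means and open points, drawn at 0.02, are livers with 0 counts. In every panel all Ndrg3 LKO livers lie above all WT livers, and Ndrg3 LKO replicate 5 is lowest for 3 genes but not for *Tcf24*.

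For each of the 4 genes every Ndrg3 LKO liver was above every WT liver, as the choice of the genes implied. The same was true of 15.5% of the 11208 genes tested across the series. All 4 genes reached the minimum level for that test only through the Ndrg3 LKO livers. Pooled over livers, with counts set against scaled library sizes, the fold of Ndrg3 LKO over WT was 737 for *Tinag* (95% exact interval 204 to 6092), since the WT livers held 2 counts in all against 2666. It was 686 for *Vmn2r3* (235 to 3330) on 3 against 3722 counts, 438 for *Pcdh20* (317 to 622) on 37 against 29261 counts, and 21 for *Tcf24* (15.8 to 28.5) on 49 against 1860 counts. These intervals cover counting error and not the spread between livers, and no order of the genes is read from them. Without Ndrg3 LKO replicate 5 the pooled folds were 822, 769, 487 and 20.8 in the same order of genes.

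Between genes, levels are comparable only per length. On the scale of CPM per kilobase of exon, the mean levels in Ndrg3 LKO livers were 29.7 for *Pcdh20* (5237 bp), 8.37 for *Tinag* (1708 bp), 7.29 for *Vmn2r3* (2670 bp) and 4.09 for *Tcf24* (2639 bp). *Pcdh20* stood above 92.7% of the 21871 genes with a length, *Tinag* above 82.5%, *Vmn2r3* above 81.0% and *Tcf24* above 74.2%. The lengths are those of 1 annotated transcript each. That of *Vmn2r3* is a multiple of 3 and probably a coding length, and that of *Tcf24* is the single exon listed as Gm10567, so these values per kilobase are approximate.

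The 4 genes did not vary together across the Ndrg3 LKO livers. *Vmn2r3* and *Pcdh20* ranked the livers alike, from replicate 3 down through 2, 1 and 4 to 5, and *Tinag* ranked them 1, 2, 3, 4 and 5. *Tcf24* ranked them 2, 5, 3, 4 and 1. Replicate 5 held 17.4% of the mean of the other 4 livers for *Tinag*, 14.0% for *Vmn2r3* and 19.2% for *Pcdh20*, but 109% for *Tcf24*. Its low values thus moved with its WT-like albumin level for 3 of the genes and not for *Tcf24*, and the part of that liver's composition in them was not tested.

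Spread did not come from replicate 5 alone. Among the other 4 livers the highest level was 3.97 times the lowest for *Tinag*, 3.598 times for *Vmn2r3*, 3.05 times for *Pcdh20* and 1.75 times for *Tcf24*. Over all 5 livers the ratios were 7.34, 11.4, 7.45 and 1.75. Per 100 counts of *Pcdh20* in the same liver, which removes any scaling, *Vmn2r3* had 7.67, 14.3, 14.2, 12.1 and 9.27 counts in replicates 1 to 5. This ratio varied less between livers than the level of either gene. *Tinag* had 14.6, 8.63, 7.70, 6.32 and 8.34 counts per 100, with replicate 1 apart. *Tcf24* had 5.21, 5.65, 4.33, 11 and 32.5, highest where *Pcdh20* was lowest.

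**Figure D2:**
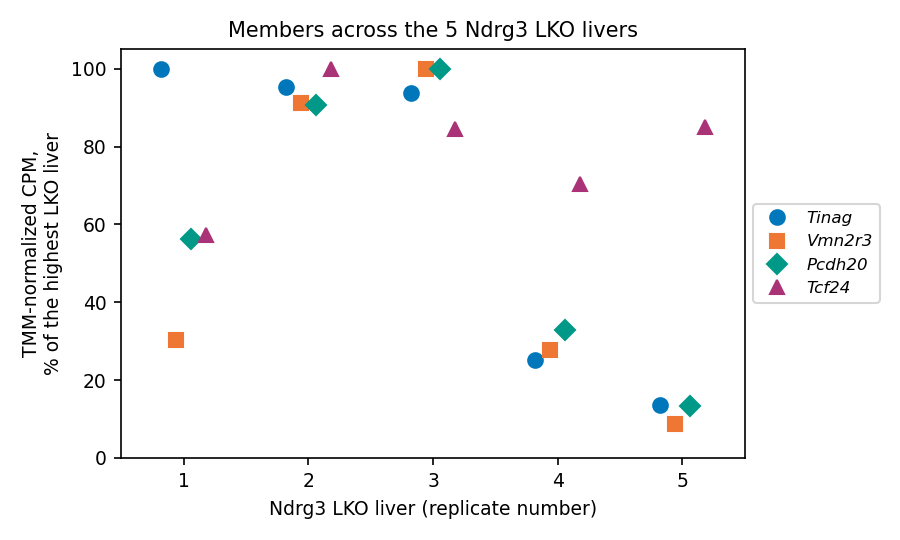
Level of each gene in the 5 Ndrg3 LKO livers (replicate number on the x axis) as a percentage of that gene's highest Ndrg3 LKO liver, from TMM-normalized CPM; points are offset sideways by gene. *Tinag*, *Vmn2r3* and *Pcdh20* are low in replicates 4 and 5, and *Vmn2r3* is also low in replicate 1. *Tcf24* in replicate 5 is close to its level in replicate 3.

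The genes were chosen without fixed count limits. With limits set for this description, at most 3 counts in every WT liver with at least 10 in every Ndrg3 LKO liver was met by 40 of the 24052 genes (0.166%), and the mirror pattern by 15 (0.0624%). These limits are raw counts. The median total was 29089210 counts in Ndrg3 LKO and 22022138 in WT livers. An equal level therefore gives more counts in most Ndrg3 LKO livers, so 40 and 15 are not directly comparable. *Vmn2r3* and *Tinag* were among the 40. *Pcdh20* and *Tcf24* were not, since their highest WT counts were 13 and 16. Limits of at most 1 and at least 10 counts gave 10 genes, and limits on the group means gave 402, with *Vmn2r3* and *Tinag* again the only members within them. By the ratio of group means after adding 0.1 CPM to each, *Pcdh20* ranked 1, *Vmn2r3* 6, *Tinag* 8 and *Tcf24* 52 among all genes. These ranks restate the counts on which the members were chosen. By mean CPM in Ndrg3 LKO livers, which is not per length, *Vmn2r3* was the highest of the 40 and *Tinag* the third. *Myo7b*, a myosin of the brush border of kidney and intestine, lay between them with 119 to 817 counts in Ndrg3 LKO and 0 to 3 in WT livers. *Iqca* followed with 61 to 382 counts against 0 to 1, and the linker histone gene *Hist1h1d* with 10 to 484 against 0 to 3. Replicate 5 was the lowest Ndrg3 LKO liver for 14 of the 40 genes. Without that liver 80 genes met the limits.

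The separation of the members can also be read from all genes at once, again in raw counts and so with the same dependence on depth. The members were chosen on these same counts, so their standing restates that choice and is no added support. No other gene combined a WT maximum as low and a Ndrg3 LKO minimum as high as *Vmn2r3* (1 and 70 counts) or *Pcdh20* (13 and 755). For *Tinag* (1 and 63) only *Vmn2r3* did so, and for *Tcf24* (16 and 245) only *Pcdh20* and *Gucy2c*, the intestinal guanylate cyclase receptor. In the opposite direction, *Serpina12* was as separated as *Pcdh20*, and *Serpina12* and *Scara5* as *Tcf24*. *Gucy2c*, *Serpina12* and *Scara5* are named after their values were seen.

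**Figure D3:**
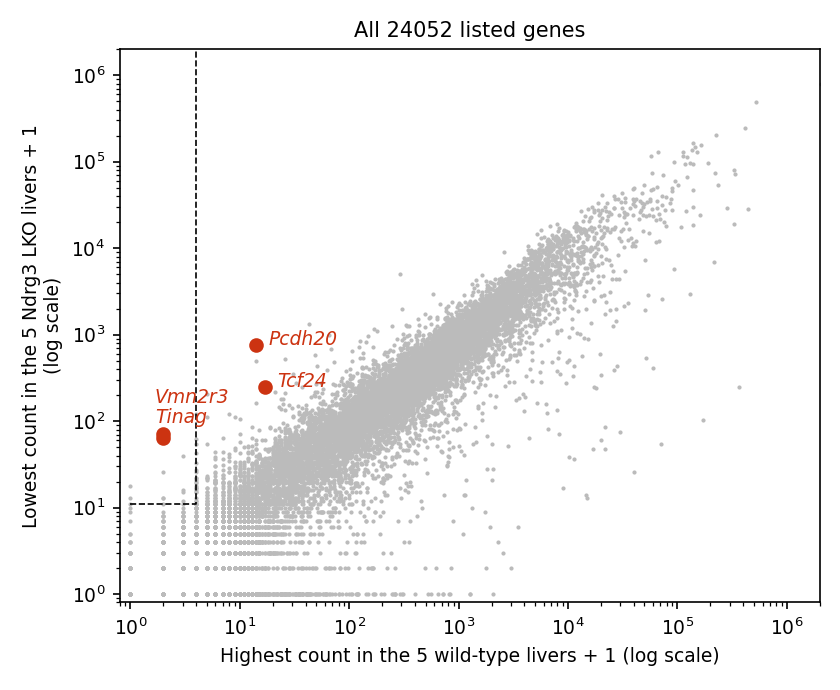
Highest count in the 5 WT livers against lowest count in the 5 Ndrg3 LKO livers for all 24052 listed genes, each with 1 count added, on log axes. The dashed corner at the upper left holds the 40 genes with at most 3 counts in WT and at least 10 in Ndrg3 LKO livers; *Vmn2r3* and *Tinag* lie inside it and *Pcdh20* and *Tcf24* to its right.

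Shares of a family's counts, which restate the counts the members were chosen on, put each member beside its relatives. *Vmn2r3* held 82.4% to 98.2% of all counts on vomeronasal receptor genes in Ndrg3 LKO livers and 0% to 4.35% in WT. The other 328 listed receptor genes together had 17 to 35 counts in the WT livers and 15 to 36 in the Ndrg3 LKO livers. Of these, 318 were at 0 in all 10 livers, 323 had at most 3 counts in every liver, and none reached the level to be tested. *Vmn2r29* had 13 to 23 counts in WT and 10 to 20 in Ndrg3 LKO livers. *Vmn2r1*, from the same chromosome 3 cluster, had 0 in all WT livers and 2, 10, 5, 2 and 0 in Ndrg3 LKO livers. Both are named after their values were seen.

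Reads of *Vmn2r3* can be shared with paralogs that hold some identical stretches. Of its stretches of 100 bases, 6.07% also occur in transcripts of *Vmn2r1*, *Vmn2r2*, *Vmn2r4*, *Vmn2r5*, *Vmn2r6* or *Vmn2r7*, and 14.4% of its stretches of 50 bases occur in these or in Gm9479. The authors name the count module of STAR, a read aligner, but do not state how reads with several matches were treated. The count of *Vmn2r3* is therefore uncertain. No stretch of 50 bases of *Tinag*, *Pcdh20* or *Tcf24* occurs in another coding transcript. The genes around the members were tested in a fit of all genes by edgeR's quasi-likelihood test, in which 48.6% of the 11208 genes passed an adjusted p of 0.05. The Ndrg3 LKO level was the higher one for 25.6% and the lower one for 23.0%, with a median log2 fold change of 0.03. Of 12 genes that act in vomeronasal signalling, 1 reached the level to be tested. It was *Gnai2*, a G protein subunit of vomeronasal neurons that is also widespread elsewhere, and it rose (log2 fold change 0.56, SE 0.13, edgeR adjusted p = 0.0044).

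*Pcdh20* made up 48.8% to 81.9% of all protocadherin counts in Ndrg3 LKO livers and 0.408% to 1.28% in WT. The other 70 protocadherin genes together had 978 to 1346 counts in WT and 793 to 2516 in Ndrg3 LKO livers, and 40 of them had at most 3 counts in every liver. Of the pair that were tested, *Pcdh12*, the endothelial VE-cadherin-2, rose by a log2 fold change of 0.84 (SE 0.32, edgeR adjusted p = 0.0481), but the call was lost in 7 of the 10 fits without 1 liver (highest adjusted p = 0.0908) and in a fit blocked on replicate number (adjusted p = 0.0782). *Pcdh1* had a log2 fold change of -0.43 (SE 0.19, adjusted p = 0.0782).

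Of 22 cadherins and partners, 11 were tested and 4 called, 2 in each direction, with a median log2 fold change of 0.06. The share called was 36.4%, against 48.6% of all genes. *Cdh5*, the cadherin of endothelial junctions, rose (1.48, SE 0.17, adjusted p = 4.7e-05). *Dchs1*, a large atypical cadherin, also rose (2.30, SE 0.43, adjusted p = 0.00122). *Cdh2*, N-cadherin, fell by 0.55 on the log2 scale (SE 0.16, adjusted p = 0.0139), but had a log2 fold change of 0.01 with scaling by library size alone. That scaling moves the median over all genes from 0.03 to 0.56 (log2 fold change). It also gave 7 calls in this list, 6 higher and 1 lower.

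*Tinag* has 1 close relative, *Tinagl1*, a matrix protein of blood vessels and smooth muscle. *Tinagl1* had 141 to 180 counts in WT and 421 to 632 in Ndrg3 LKO livers, or 8.28 ± 0.480 against 16.7 ± 2.23 CPM (SD, n = 5 each), and rose (log2 fold change 1.02, SE 0.13, adjusted p = 1.03e-04). Its highest Ndrg3 LKO level, 19.8 CPM, was that of replicate 5, where *Tinag* was lowest. *Tinag* supplied 13.02% to 58.6% of the counts of the pair in Ndrg3 LKO livers and 0% to 0.699% in WT.

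Of 34 basement membrane genes, 25 were tested, 13 rose and 3 fell, with a median log2 fold change of 0.70, against 19 higher and 1 lower (median 1.21) under library-size scaling. With TMM scaling 64% of those tested were called, against 48.6% of all genes. Endothelial markers (8 of 10 higher) and stellate cell markers (6 of 10 higher) moved with this list, and their part in it was not tested. *Nid1*, a linker of laminin and collagen IV, rose from 3.32 to 4.64 CPM in WT to 7.26 to 14.6 CPM in Ndrg3 LKO livers (1.59, SE 0.21, adjusted p = 1.33e-04). *Lama3*, the laminin alpha 3 chain, moved the other way, from 112 to 417 counts in WT to 7 to 18 counts in Ndrg3 LKO livers (-5.05, SE 0.39, adjusted p = 6.2e-06). Among 10 cysteine cathepsins, the protease family that *Tinag* resembles, 8 were tested, 4 rose and 2 fell, with a median of 0.29, against 5 higher and 0 lower under library-size scaling. With TMM scaling 75% of those tested were called, beside the same 48.6%. *Ctsb*, cathepsin B, rose (0.68, SE 0.13, adjusted p = 0.00146), as did *Ctss*, the cathepsin of antigen-presenting cells (1.497, SE 0.33, adjusted p = 0.00336). *Ctsh* fell by 0.43 (SE 0.13, adjusted p = 0.0185), with 0.09 under library-size scaling, where *Ctsf*, the other gene that fell, was at 0.12, and an adjusted p of 0.0525 once blocked on replicate number. With that block 2 cathepsins were called, both higher.

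*Tcf24* supplied 9.33% to 20.02% of the counts of class II bHLH genes in Ndrg3 LKO livers and 0.249% to 2.52% in WT. Of the other 45, 29 had at most 3 counts in every liver and 4 were tested. The share called was 25%, with 1 gene, against 48.6% of all genes. *Atoh8*, a bHLH factor with a known place in iron regulation in liver, rose from 17.3 to 29.2 CPM in WT to 30.1 to 79.3 CPM in Ndrg3 LKO livers (log2 fold change 1.40, SE 0.25, adjusted p = 8.64e-04). It was lowest in replicate 5 at 30.1 CPM. Without that liver 2 of the list were called, both higher. Among the 7 E proteins and Id factors, which pair with class II factors or block that pairing, 6 were tested. Of the 6, 50% were called, close to the 48.6% of all genes, and 3 rose. These were the inhibitors *Id1* (3.597, SE 0.50, adjusted p = 2.08e-04) and *Id3* (2.02, SE 0.25, adjusted p = 8.77e-05), and the E protein gene *Tcf4* (0.61, SE 0.14, adjusted p = 0.00371). Without replicate 5 all 6 were called, 5 higher and 1 lower.

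Most genes beside the members had few or no counts in either group. The 3 nearest listed genes on each side of the 4 members are 24 genes, of which 7 were at 0 in all livers, 9 had at most 3 counts in every liver and 5 were tested. Of those 5, 3 were called (60%), against 48.6% of all genes. *Sgk3*, a kinase gene 57.6 kb from *Tcf24*, rose from 10.5 ± 1.55 to 18.2 ± 3.45 CPM (SD, n = 5 each; log2 fold change 0.80, SE 0.16, adjusted p = 0.00161). *Gmps*, which encodes GMP synthase and lies 236.4 kb from *Vmn2r3*, fell from 61.9 ± 5.11 to 31.4 ± 8.89 CPM (-0.98, SE 0.17, adjusted p = 8.07e-04). *Tdrd3*, 919.2 kb from *Pcdh20*, fell by 0.42 (SE 0.15, adjusted p = 0.0373), which was 0.09 under library-size scaling and was no longer called with the replicate block (adjusted p = 0.0933) or in 5 of the 10 fits without 1 liver.

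Beside *Tcf24*, *Cops5* and *Cspp1* had log2 fold changes of 0.06 (SE 0.12, adjusted p = 0.689) and 0.01 (SE 0.22, adjusted p = 0.967). The nearest neighbours on either side, named after their values were seen, had few counts. *Ppp1r42*, 5.8 kb from *Tcf24*, had 0 to 5 counts in WT and 33, 26, 13, 11 and 98 in Ndrg3 LKO livers. *Mcmdc2*, at 18.1 kb, had 0 to 1 count in WT and 1 to 9 in Ndrg3 LKO livers. Around *Vmn2r3*, *Vmn2r2*, *Vmn2r4*, *Vmn2r5* and *Vmn2r6* were at 0 in all livers. Around *Tinag*, the nearest gene, *Mlip* at 56.3 kb, had 0 to 3 counts in WT and 0 in Ndrg3 LKO livers. The protocadherins *Pcdh9* and *Pcdh17* lie 4543.5 and 3927.7 kb from *Pcdh20* and had at most 5 and 23 counts in any liver. Also named after their values were seen, *1700034P13Rik*, 168.2 kb from *Tcf24*, had 10 to 18 counts in WT and 19 to 82 in Ndrg3 LKO livers. *Diap3*, 1323.5 kb from *Pcdh20*, had 1 to 4 against 14 to 30 counts, and *Hcrtr2*, 628.1 kb from *Tinag*, 5 to 36 against 0 to 5.

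**Figure D4:**
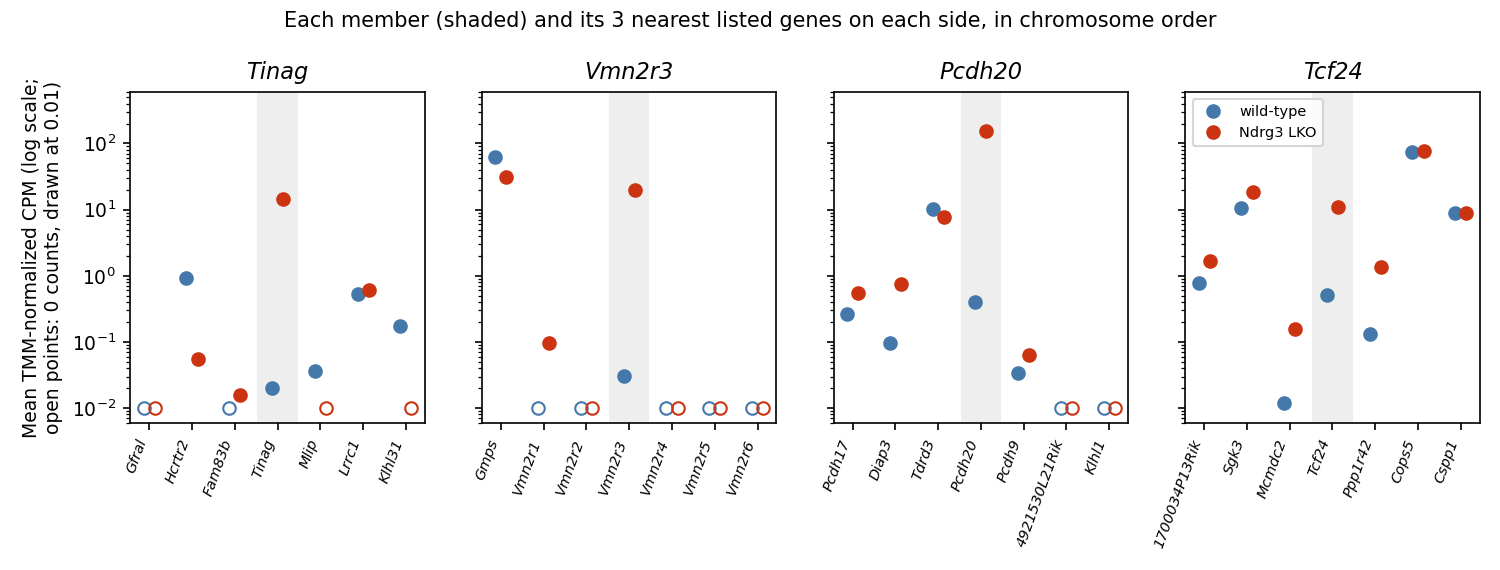
Mean TMM-normalized CPM (log axis) in WT (blue) and Ndrg3 LKO (red) livers, n = 5 each, of each gene (shaded) and its 3 nearest listed genes on each side, in chromosome order and not to distance. Open points, drawn at 0.01, are genes with 0 counts in all 5 livers. The neighbours of *Vmn2r3* within its cluster are at or near 0, and *Cops5* and *Cspp1* beside *Tcf24* have about the same level in both groups. The other neighbours of *Tcf24* have a higher mean in Ndrg3 LKO livers.

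Markers of the tissues in which these genes are best known were mostly absent. Of 15 kidney markers, 6 were at 0 in all 10 livers, among them *Aqp2*, *Kap*, *Slc12a1* and *Slc22a6*, and 11 had at most 3 counts in every liver. The summed level of the 15 was 1.51 to 2.68 CPM in WT livers and 5.43, 9.67, 10.7, 8.92 and 0.896 CPM in Ndrg3 LKO replicates 1 to 5. The 1 tested, *Lrp2*, the endocytic receptor megalin, rose (log2 fold change 2.30, SE 0.57, adjusted p = 0.00601), from 14 to 34 counts in WT to 11 to 362 in Ndrg3 LKO livers. *Lrp2* made up most of the Ndrg3 LKO sums, at 4.45, 8.77, 8.85, 8.55 and 0.519 CPM in replicates 1 to 5. Without the filter on level 9 kidney markers were tested, 2 rose and 1 fell, with a median log2 fold change of -0.844. Replicate 5 was the low one for *Lrp2*, as for *Tinag*.

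Of 12 neuron markers, 9 had at most 3 counts in every liver, and their sum was 5.07 to 11.5 CPM in WT and 4.35 to 5.97 CPM in Ndrg3 LKO livers. *Syt1*, a synaptic vesicle protein gene, was the 1 tested and fell by 0.87 on the log2 scale (SE 0.24, edgeR adjusted p = 0.0107), with -0.34 and no call under library-size scaling. In the lists for intestine, pancreatic acinar cells and germ cells, 2, 1 and 1 genes were tested. *Fabp2* (-1.25), *Cela1* (-1.27) and *Sycp3* (-1.71) fell, and no other gene of these lists was called. Without Ndrg3 LKO replicate 5 the intestine list had 3 genes tested and 3 calls, 2 of them higher. Fits without 1 liver asked for the minimum level in 1 liver fewer. Leaving out any 1 WT liver also gave 3 intestine genes tested, with 1 higher and 1 lower.

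Markers of macrophages, stellate cells and endothelium that were called were higher in Ndrg3 LKO livers. Among all genes tested, 25.6% rose and 23.0% fell. All 8 macrophage markers tested rose (median log2 fold change 1.31), as did 6 of 10 stellate cell markers (1.21) and 8 of 10 endothelial markers (1.21), and no marker of these 3 lists fell. Their summed levels were 81.3 to 207 against 188 to 575 CPM, 45.04 to 80.3 against 81.9 to 125 CPM, and 68.2 to 87.7 against 145 to 188 CPM in WT and Ndrg3 LKO livers. None of these markers was at 0. Among 7 tested markers of bile ducts and progenitors, *Prom1* (4.42, SE 0.51, adjusted p = 5.55e-05) and *Spp1* (1.27, lost with the replicate block at an adjusted p of 0.0612) rose and *Sox9* fell by 0.86, with -0.29 and no call under library-size scaling, where 4 of the list were higher and 0 lower. Of 11 hepatocyte markers tested 8 fell, with a median of -1.24, and the sum was 161843 to 206064 CPM in WT, 42514 to 50743 CPM in Ndrg3 LKO replicates 1 to 4 and 166560 CPM in replicate 5. Library-size scaling left 8 of them lower and called 1 higher. The part of these cell types in the levels of the 4 genes was not tested.

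Of 8 fetal liver markers 3 were tested and 2 called, or 66.7% against 48.6% of all genes. *Afp*, the alpha-fetoprotein gene, and *Gpc3*, the glypican-3 gene, rose by log2 fold changes of 2.81 and 1.68. The other gene tested was not called, and so few tested genes do not speak for the list. *Afp* was at 0.674 to 1.45 CPM in WT and 3.73 to 10.9 CPM in Ndrg3 LKO livers.

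Genes of DNA methylation and of the Polycomb repressor complexes, which keep tissue-specific genes silent, were called in both directions. The shares called, 40.9% and 16.7% of those tested, were below the 48.6% of all genes. Of 22 DNA methylation and repression genes tested, 5 rose and 4 fell, with a median log2 fold change of -0.03, against 10 higher and 1 lower (median 0.51) under library-size scaling. *Uhrf1*, which brings the maintenance methyltransferase to replicating DNA, rose (3.73, SE 0.65, adjusted p = 7.94e-04). *Mbd2*, which encodes a methyl-CpG binding protein, fell (-0.86, SE 0.14, adjusted p = 4.63e-04). Without Ndrg3 LKO replicate 1 the list had 5 calls. Of 30 Polycomb genes tested 2 rose and 3 fell, below the share called among all genes. They were led by *Cbx2* (-1.12, SE 0.17, adjusted p = 2.97e-04), *Cbx6* (0.85) and *Pcgf6* (-0.52). Library-size scaling gave 18 higher and 1 lower, with *Pcgf6* at 0.01, and without Ndrg3 LKO replicate 5 there were 5 in each direction.

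The genes most like each member were found from the root mean square difference between profiles over the 10 livers, each profile divided by its mean in the Ndrg3 LKO livers, among 12090 genes. For *Tinag* they were *Adm2* (0.0786), the gene of a peptide hormone of the calcitonin family, *Car6* (0.108), a secreted carbonic anhydrase, and *Jazf1* (0.110). *Adm2* had 62, 80, 73, 21 and 10 counts in Ndrg3 LKO and 0 in every WT liver. *Jazf1* was at 8.44 to 48.4 CPM in Ndrg3 LKO and 0.225 to 1.13 CPM in WT livers. For *Vmn2r3* they were *Hist1h1e* (0.061), the adrenergic receptor gene *Adra2a* (0.107) and *Hist1h1d* (0.115). *Adra2a* was at 34.3, 90.3, 82.3, 20.7 and 1.56 CPM in the Ndrg3 LKO livers, highest in replicates 2 and 3 and lowest in replicate 5.

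For *Pcdh20* the nearest were *Hist1h1d* (0.0862), *Hist1h2be* (0.094), both histone genes, and *Pde10a* (0.125), a cyclic nucleotide phosphodiesterase. Among the members, *Pcdh20* was the fifth nearest to *Vmn2r3* at 0.156. For *Tcf24* the nearest were more distant, *Nt5e* (0.147), the ecto-5'-nucleotidase CD73, *Sgk1* (0.155), a glucocorticoid-induced kinase, and *Apba2* (0.167). *Sgk1* was at 10.7 to 14.4 CPM in WT and 172 to 380 CPM in Ndrg3 LKO livers. On log2(CPM + 1) profiles only *Adm2* stayed among the 3 nearest, and none did for *Vmn2r3*, *Pcdh20* or *Tcf24*, so likeness beyond the difference between groups depended on the scale.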

How the data were processed

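RNA from 10 mouse livers was measured, 5 WT and 5 Ndrg3 LKO, grouped by the genotype in the labels. The authors prepared stranded mRNA libraries, sequenced paired ends of 100 bp and used STAR to map them to mm9. They name the count module of STAR for the counting. The deposited values are their counts per gene symbol, whole numbers without normalization although the file names carry the word CPM. The submitters' processing notes name bcl2fastq, Trim Galore 0.6.4, STAR 2.7.3a and Cufflinks 2.2.1. The annotation and the strand setting of the counting are not given in the sources used here. Of the 24052 symbols, 6306 were at 0 in all livers and 25 look like dates.

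The tested genes, those reaching 1 CPM in 5 or more livers, were analysed with edgeR 4.0.16 in R 4.3.3 (TMM scaling, quasi-likelihood test, Benjamini-Hochberg adjustment, threshold 0.05), after a check on simulated counts. The SE was obtained from the log2 fold change and its F statistic. Folds over pooled counts carry exact conditional binomial intervals at 95%; they hold for counting error alone, as the reads carry no molecular identifiers and repeat molecules count again. Alternatives were other filters, median-of-ratios and library-size scaling, DESeq2 1.42.0, limma 3.58.1 on log2(CPM + 1), an absolute log2 fold change above 1, the replicate number as a block and each liver left out. With a liver left out, the filter asked for 1 CPM in 1 liver fewer, so more genes could be tested.

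The members and the gene lists were chosen with earlier results of these data known. From each list up to 3 called genes with the smallest adjusted p were named, and further every called neighbour, the 3 genes of nearest profile, the 5 genes of the highest mean among those seen only in Ndrg3 LKO livers, and marker genes of high level. Positions come from the GENCODE annotation of NCBIM37, where 22062 symbols were found, and promoters from RefSeq; 3 of the 4 members matched the promoter table. No library repeated another, as chi-square per degree of freedom was 25.7 to 450 over the 20 within-group pairs. The labels do not say more of how the mice of a group relate, so p-values measure the spread between these livers. Some results on genes of the lists are not reported here.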

Additional observations from a re-analysis of the deposited data

Results flagged for a closer look

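Of the 8 sets of 5 livers tested for a single liver far from the rest (4 genes in 2 groups), 1 stood out. It was *Pcdh20* in WT replicate 5, at 0.774 CPM against 0.279 to 0.368 CPM in the other 4 WT livers, and its gap to the nearest of these was 0.82 of the whole range. This rests on 13 counts against 5, 6, 5 and 8, and chance alone flags about 1 in 20 such sets.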

How the results depend on the processing

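Of 507 values recomputed under an alternative, 447 stayed within the limits set, and 60 moved. These are counts of calls, mean levels and folds, and the direction of single genes is apart from them. Library-size scaling turned the log2 fold changes of *Cdh2*, *Ctsf*, *Ctsh*, *Pcdh1*, *Pcgf6* and *Tdrd3* from negative to positive, all with no call. The labels do not say that replicate numbers pair the livers. Deviations from the group mean correlated at -0.216 on average between livers of 1 number, which shows no sign of pairing but cannot exclude it. The replicate block is therefore an alternative only. With the block 4412 genes were called in place of 5443, 0 protocadherins in place of 1 and 2 cathepsins in place of 6, and no other list count moved by over 1.5 times. An absolute log2 fold change above 1 left 2301 genes, with 10 basement membrane genes in place of 16, 1 cathepsin, 2 DNA methylation genes in place of 9, 1 Polycomb gene in place of 5, and 0 for vomeronasal signalling, protocadherins, neuron markers and flanking genes. A mean CPM of at least 5 left 9 basement membrane genes, 3 stellate cell markers in place of 6, and 0 protocadherins, kidney, germ cell and fetal markers. Without the filter 10 flanking genes, 3 class II bHLH factors, 3 kidney markers and 2 each of vomeronasal receptors, vomeronasal signalling, protocadherins, intestine and pancreas markers were called. Library-size scaling called 19 Polycomb genes, 7 cadherins and partners, 5 E proteins and Id factors, 3 class II bHLH factors, 2 intestine markers and 0 neuron markers, and it gave *Tcf24* a mean of 13.1 CPM in place of 10.8 in Ndrg3 LKO livers and a fold of group means of 29.9 in place of 20.8. Of genes seen only in Ndrg3 LKO livers, limits of 1 and 10 counts gave 10 and group means in place of every liver 402, against 40. The causes of these moves were not tested, except that stricter filters test fewer genes.

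When single livers were left out, the calls were 4703 to 6360 over all genes, 0 to 1 protocadherins, 1 to 2 class II bHLH factors and vomeronasal signalling genes, 3 to 6 E proteins and Id factors, 5 to 10 DNA methylation genes, 3 to 10 Polycomb genes and 1 to 3 intestine markers. The genes seen only in Ndrg3 LKO livers numbered 41 to 80. The fold of group means was 562 to 1244 for *Tinag* (703 with all livers), 483 to 821 for *Vmn2r3* (630), 321 to 510 for *Pcdh20* (390) and 17.3 to 23.8 for *Tcf24*. Depth limits *Tinag* and *Vmn2r3* most, since their WT livers held 2 and 3 counts in all.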
